A study of Mus musculus with 34 samples.

Results

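Dendritic cells (DCs) of the CD8+ type were sorted from the spleen of C57BL/6 mice, and their RNA was profiled on arrays in 4 samples labelled Mst1/2-KO (genotype Mst1/2-/-) and 4 labelled wild-type (WT). These 8 arrays, chosen by their titles, are described across all genes, out of 34 arrays in the series. The sorted cells carry no label for stimulation, and all 8 arrays share the experiment label XD107 with 4 Mst1/2-KO and 4 WT arrays of sorted CD8- DCs. Another 7 arrays, 4 WT and 3 Mst1/2-KO, hold total splenic DCs. The labels name neither the age nor the sex of the mice, nor the promoter or cell type in which Mst1 and Mst2 were deleted. Nothing in them ties an array to an animal, and the p-values therefore reflect array-to-array spread, which may be technical.

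Mst1 and Mst2 are the kinases at the head of the Hippo pathway. In the textbook form of the pathway they activate the Lats kinases, which keep the co-activators YAP and TAZ out of the nucleus. CD8+ DCs are the splenic subset known for taking up dying cells and presenting their antigens on MHC class I molecules to CD8 T cells, and for making IL-12. On maturation DCs raise chemokine receptors, chemokines and co-stimulatory molecules, many of them through NF-kB, and move to the T cell zones. The comparison asks which genes differ between Mst1/2-KO and WT arrays of this subset.

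Stk4, the gene of Mst1, read 8.26, 8.33, 8.46 and 8.28 in the WT arrays and 7.64, 7.22, 7.63 and 7.39 in the Mst1/2-KO arrays, in log2 signal. Every Mst1/2-KO array lay below every WT array, and the level fell 1.81-fold, a log2 change of -0.86 ± 0.10 (adjusted p = 0.000166). Where the probes lie relative to the deleted part is not known here, so this is a check of the labels and not a measure of the deletion. The other kinase gene, Stk3 (Mst2), was not analysed here.

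The median log2 signal of the 8 arrays lay between 4.11 and 4.17, and an array gives no read depth, so the number of arrays limits the precision. Markers of the CD8+ subset were high and alike in both genotypes. Cd8a read 12.25, 12.12, 12.04 and 12.05 in the WT arrays and 12.16, 12.09, 11.93 and 12.23 in the Mst1/2-KO arrays, and Xcr1, the chemokine receptor of this subset, read 11.48, 11.45, 11.60 and 11.62 in the WT arrays and 11.48, 11.52, 11.54 and 11.68 in the Mst1/2-KO arrays. Of 24 measured CD8+ DC identity genes 0 were called by limma (2 at an unadjusted p under 0.05), with a median log2 change of 0.02. No member was called among the measured markers of neutrophils (14), macrophages and monocytes (19), NK cells (11), B cells (12), T cells (10), plasmacytoid DCs (13), plasma cells and stroma (11), or erythroid cells and platelets (7), with 0 to 2 members of a list at an unadjusted p under 0.05. Cd3e, the defining T cell gene, was near the floor at 3.90 ± 0.20 in WT and 3.91 ± 0.24 in Mst1/2-KO arrays. S100a8, a neutrophil gene, varied within both groups, 6.50, 6.20, 7.31 and 8.17 in the WT arrays and 4.85, 8.38, 8.56 and 8.78 in the Mst1/2-KO arrays. The mean log2 signal of the sex-linked genes Xist, Eif2s3y, Kdm5d and Uty was 5.44 to 5.73 over the WT arrays and 4.87 to 5.56 over the Mst1/2-KO arrays. This mean joins Xist, a gene of female cells, with Y-linked genes, so it cannot show the sex of a sample. The Y-linked Kdm5d read 5.41, 5.07, 4.99 and 4.89 in the WT arrays and 4.10, 4.57, 4.26 and 5.20 in the Mst1/2-KO arrays. All 4 sex-linked genes had a log2 change below 0 (median -0.33), and 0 were called. Their part in the results was not tested.

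More genes were called lower than higher in Mst1/2-KO CD8+ DCs, and more of the called falls were 2-fold or larger. Of 22180 genes tested in 1 limma fit on the 16 sorted arrays, 145 were lower (0.654%) and 52 higher (0.234%) in Mst1/2-KO CD8+ DCs at a Benjamini-Hochberg adjusted p under 0.05, or 0.888% in all. Among the lower genes 10 fell over 4-fold and 35 between 2- and 4-fold. Among the higher genes 0 rose over 4-fold and 4 between 2- and 4-fold. Calls came from genes with signal: with genes split by mean signal into 4 bands of 5545, 85 of the lower and 28 of the higher genes lay in the highest band and 0 in the lowest. Genotype arrays did not overlap for 140 of the 145 and 50 of the 52, against 6.33% of all genes. The calls rest on the same values, so this is no separate support for them. Without the adjusted threshold the counts leaned the other way: 1251 genes were higher and 1093 lower at an unadjusted p under 0.05, 731 (3.3%) lay wholly above and 673 (3.03%) wholly below WT, and 11430 of 22180 had a change above 0. Of the lower genes 19 are on the lists of DC maturation or NF-kB genes, 44 on other lists only and 82 on none, and at 2-fold or more 38 of 45 are off the maturation and NF-kB lists. The count of rises rested on single arrays more than the count of falls: it was 19 without Mst1/2-KO replicate 3, 20 without Mst1/2-KO replicate 4, 27 without WT replicate 2, 29 without WT replicate 1, 30 without Mst1/2-KO replicate 1 and 80 without Mst1/2-KO replicate 2, and the falls were 95 without Mst1/2-KO replicate 3.

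**Figure D1:**
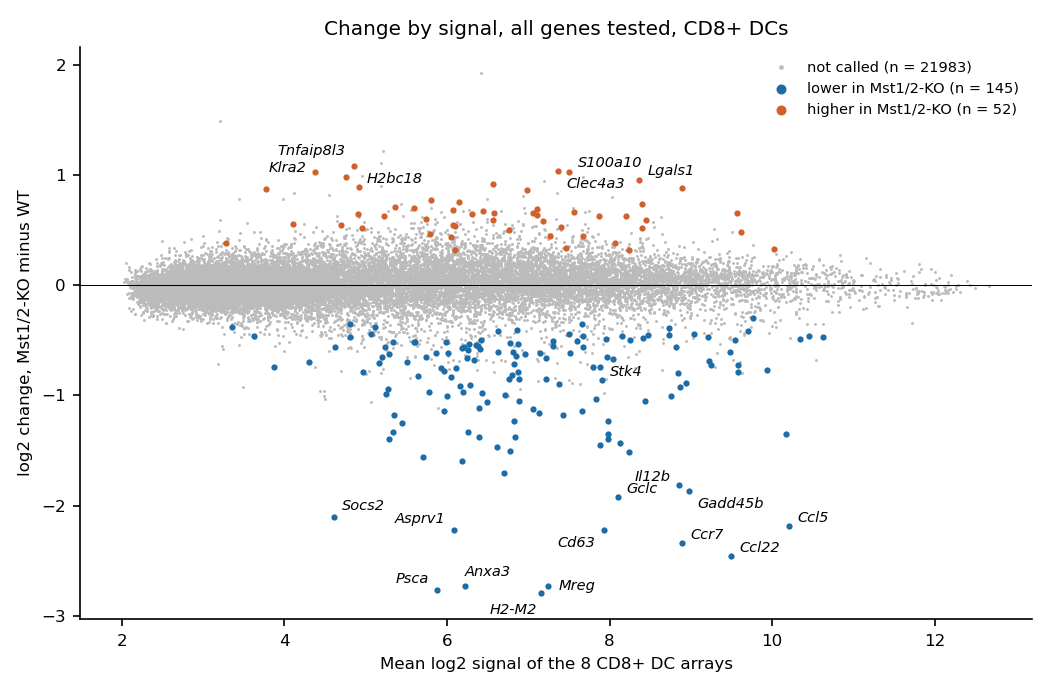
The log2 change between Mst1/2-KO and WT CD8+ DCs (vertical axis) is plotted against the mean log2 signal of the 8 arrays (horizontal axis), 1 point per gene, with called genes in colour. The deepest falls, among them H2-M2, Psca, Anxa3 and Mreg, pass a log2 change of -2.7, while the called rises reach about 1. The largest rise of any gene, 1.925, was not called.

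The largest fall was in H2-M2, a non-classical MHC class I gene, which read 8.28, 8.87, 8.13 and 8.93 in the WT arrays and 6.04, 5.95, 5.49 and 5.56 in the Mst1/2-KO arrays. The genotypes were far apart, a 6.94-fold difference and a log2 change of -2.79 ± 0.23 (adjusted p = 2.86e-06). Its MHC class I and processing list had 34 measured genes, of which 2 fell and 0 rose (5.88% called, against 0.888% of all genes). The 2 were H2-M2 and H2-Q4 (-0.58 ± 0.11, adjusted p = 0.0185, with a second, dimmer H2-Q4 probe set at -0.31 ± 0.16). The list median was -0.01. Among 16 MHC class II genes 2 fell (12.5% called), the others not passing the test. H2-Eb2, a class II beta chain gene, read 7.50, 7.41, 7.56 and 7.63 in the WT arrays and 6.23, 5.74, 6.27 and 5.85 in the Mst1/2-KO arrays, a log2 change of -1.50 ± 0.18 (adjusted p = 0.000192). H2-Oa, a chain of the H2-O protein that restrains peptide loading, changed by -0.46 ± 0.08 (adjusted p = 0.00786), with an adjusted p of 0.0553 in the fit of the 8 arrays alone. The class II list had a median of -0.05.

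Psca, a surface protein held by a lipid anchor, read 6.62, 7.53, 7.43 and 7.48 in the WT arrays and 4.38, 5.06, 4.68 and 3.88 in the Mst1/2-KO arrays. WT replicate 1 stood below the other WT arrays and still above each Mst1/2-KO array, and the log2 change was -2.76 ± 0.30 (adjusted p = 6.04e-05). Mreg, or melanoregulin, which takes part in the transport of lysosome-related organelles, read 8.94, 8.26, 8.55 and 8.71 in the WT arrays and 6.13, 6.00, 6.00 and 5.41 in the Mst1/2-KO arrays, a 6.64-fold fall with a log2 change of -2.73 ± 0.20 (adjusted p = 5.73e-07). Cd63, a tetraspanin of late endosomes and lysosomes, read 9.01, 9.04, 9.09 and 9.03 in the WT arrays and 7.10, 7.05, 7.10 and 6.02 in the Mst1/2-KO arrays. The WT arrays agree within 0.03 (SD), Mst1/2-KO replicate 4 is lower than the other Mst1/2-KO arrays, and the log2 change was -2.23 ± 0.18 (adjusted p = 2.32e-06). Mreg was 1 of 2 falls among 93 genes of Rab GTPases and vesicle traffic (2.15% called, against 0.888% of all genes, median -0.01). In the tetraspanin list of 29 the other fall was Tspan3 (-0.90 ± 0.18, adjusted p = 0.0178, not called when WT replicate 1, Mst1/2-KO replicate 2 or Mst1/2-KO replicate 3 was left out, adjusted p up to 0.0676). In the lysosome and proton pump list of 44 only Cd63 was called, and the median was -0.06.

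Anxa3, an annexin that binds membranes in the presence of calcium, read 7.02, 7.38, 7.87 and 8.08 in the WT arrays and 4.38, 5.09, 4.79 and 5.18 in the Mst1/2-KO arrays, a log2 change of -2.73 ± 0.25 (adjusted p = 8.67e-06). Annexins and S100 proteins did not move one way: of 30 measured 1 fell, Anxa3, and 2 rose, S100a10 and Anxa2 (10% called, against 0.888% of all genes). S100a10 and Anxa2 encode the partners of a membrane-bound complex. S100a10 read 6.77, 7.01, 6.91 and 7.28 in the WT arrays and 7.83, 8.09, 8.18 and 7.98 in the Mst1/2-KO arrays, a rise of 2.04-fold with a log2 change of 1.03 ± 0.12 (adjusted p = 0.000103). Anxa2 read 7.77, 8.11, 8.11 and 8.11 in the WT arrays and 8.62, 8.60, 8.85 and 8.97 in the Mst1/2-KO arrays, with a log2 change of 0.74 ± 0.10 (adjusted p = 0.00105). For both genes each Mst1/2-KO array was above each WT array, and both calls held with each array left out in turn.

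Asprv1, an aspartic protease first known from skin, read 7.39, 7.27, 7.33 and 6.81 in the WT arrays and 4.87, 5.05, 5.11 and 4.90 in the Mst1/2-KO arrays, a 4.65-fold fall. Its log2 change was -2.22 ± 0.19 (adjusted p = 3.05e-06). Mxd1, its neighbour in the RefSeq gene order and a partner of Max that opposes Myc, changed by -1.05 ± 0.15 (adjusted p = 0.000931); it was named after its value was seen. Tmem176a and Tmem176b, neighbouring genes of vesicle membrane proteins, fell together. Tmem176a read 7.50, 7.66, 7.51 and 7.43 in the WT arrays and 6.28, 6.19, 5.98 and 6.16 in the Mst1/2-KO arrays and Tmem176b read 7.65, 7.79, 7.62 and 7.80 in the WT arrays and 6.601, 6.94, 6.15 and 6.53 in the Mst1/2-KO arrays. The log2 changes were -1.38 ± 0.08 (adjusted p = 2.82e-08) and -1.16 ± 0.12 (adjusted p = 2.37e-05), Tmem176b being outside the naming rule.

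Other falls of this size were spread over functions. Gadd45b, a stress-inducible regulator of MAP kinase signalling, read 9.95, 9.82, 9.93 and 9.92 in the WT arrays and 8.59, 8.19, 7.59 and 7.78 in the Mst1/2-KO arrays, which was even in WT and scattered in Mst1/2-KO arrays, with a log2 change of -1.87 ± 0.18 (adjusted p = 1.93e-05). Adcy6, an adenylyl cyclase, read 6.28, 6.52, 6.46 and 6.69 in the WT arrays and 5.10, 4.84, 4.90 and 4.86 in the Mst1/2-KO arrays, a log2 change of -1.56 ± 0.12 (adjusted p = 1.19e-06). Nudt17, a Nudix hydrolase, fell 3.03-fold and Gca, the calcium-binding grancalcin, 2.77-fold, with neither group overlapping the other. Enpp5, an ectonucleotide phosphodiesterase, read 8.68, 8.34, 8.98 and 8.40 in the WT arrays and 7.02, 8.21, 6.61 and 6.78 in the Mst1/2-KO arrays. Here Mst1/2-KO replicate 2 lay just under the lowest WT array while the other 3 were well below, and the adjusted p was 0.00786, or 0.0762 in a fit of the 8 arrays alone. Apol7c, an apolipoprotein L gene, read 10.93, 10.82, 10.86 and 10.74 in the WT arrays and 9.84, 9.88, 9.26 and 8.97 in the Mst1/2-KO arrays, with a log2 change of -1.35 ± 0.26 (adjusted p = 0.0175) that missed the threshold without WT replicate 1, Mst1/2-KO replicate 3 or Mst1/2-KO replicate 4 (adjusted p up to 0.0733).

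**Figure D2:**
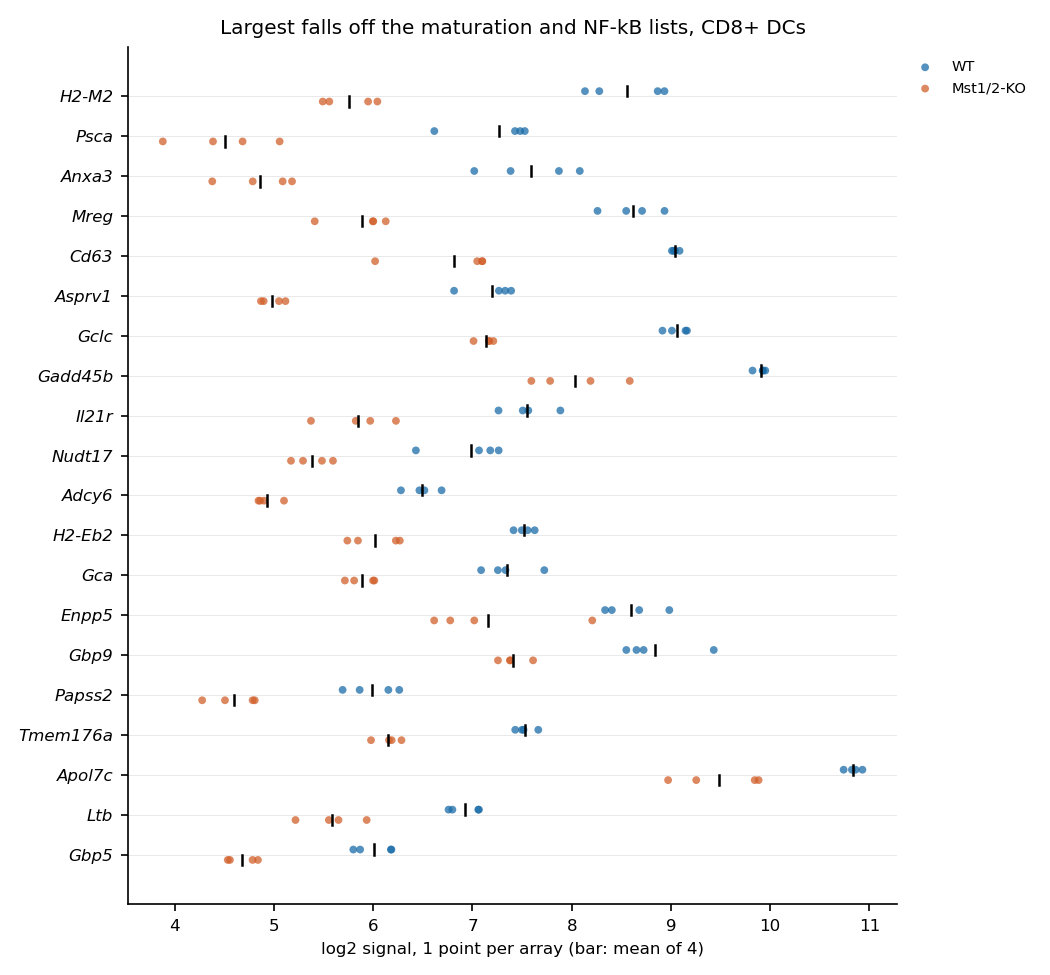
Log2 signal (horizontal axis) is shown for the 20 genes with the largest falls off the maturation and NF-kB lists, 1 point per array, WT in blue above and Mst1/2-KO in orange below, with the mean of 4 as a bar. The genotypes do not overlap, which was a condition for inclusion, and are closest for Enpp5.

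The promoters of the fallen genes were read for the kappa B consensus, the motif bound by NF-kB, in the 250 bases before the first listed start. RefSeq promoters (GRCm38.p6) were matched for 113 of the 145 lower genes. The consensus was found on either strand in 22 of the 113 (19.5%), against 1299 of 16918 promoters of all tested genes (7.68%) and 3 of 43 for the higher genes (6.98%). Off the maturation and NF-kB lists it was in 17 of 99 (17.2%). The element GGAATG of TEAD factors, which YAP and TAZ bind, was in 15 of 113 (13.3%) against 11.7% of all, and the AP-1 element TGANTCA in 8 (7.08%) against 6.47%. Motifs were searched on both strands and may overlap in a promoter, and a match is a description and not a bound site. The promoters of all tested genes include those of dim genes and were not matched to the called genes in signal. The windows below are written 5′ to 3′ on the strand of the gene. They come from genes with large falls chosen among those that hold a match, so they do not show how common a match is. The consensus is in capitals, with 15 bases on each side and no base past the start.
H2-M2 (chr17:37483676-37483749, minus strand): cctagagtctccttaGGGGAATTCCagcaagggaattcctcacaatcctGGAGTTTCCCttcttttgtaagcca
Papss2 (chr19:32595532-32595646, plus strand): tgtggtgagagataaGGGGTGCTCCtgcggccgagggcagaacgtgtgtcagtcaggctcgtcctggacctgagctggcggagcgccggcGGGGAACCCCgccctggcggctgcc
Asprv1 (chr6:86627998-86628037, plus strand): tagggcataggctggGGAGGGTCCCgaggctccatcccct
Ltb (chr17:35194405-35194444, plus strand): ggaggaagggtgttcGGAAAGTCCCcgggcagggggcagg
Gbp5 (chr3:142496842-142496881, plus strand): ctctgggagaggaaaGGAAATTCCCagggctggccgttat
Cxcl10 (chr5:92348968-92349063, minus strand): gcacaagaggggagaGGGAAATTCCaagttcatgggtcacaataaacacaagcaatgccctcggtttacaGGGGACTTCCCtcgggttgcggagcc
H2-M2 holds 2 matches, the first starting 180 bases before the start, Papss2 holds 2 and Cxcl10 holds 3, of which 2 overlap. Asprv1, Ltb and Gbp5 hold 1 each, at 161, 87 and 77 bases before the start.

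The maturation genes serve as the reference for these falls. Of 34 measured members 13 fell and 0 rose (38.2% called, against 0.888% of all genes). Their median log2 change was -0.37, against 0.00 over all genes. Of 33 NF-kB pathway and target genes 10 fell and 0 rose (30.3% called), with a median of -0.40. Both lists were known from earlier results of these data to be lower, and Relb, Cd40, Traf1 and Birc3 fell on both. Ccr7, the receptor that takes DCs to T cell zones, read 10.51, 9.73, 10.04 and 9.98 in the WT arrays and 8.28, 7.92, 7.83 and 6.87 in the Mst1/2-KO arrays. Ccl22, a chemokine for T cells, read 10.61, 10.72, 10.71 and 10.84 in the WT arrays and 8.46, 8.71, 8.14 and 7.75 in the Mst1/2-KO arrays. Il12b, which encodes the shared subunit of IL-12 and IL-23, read 10.40, 9.40, 9.50 and 9.72 in the WT arrays and 8.28, 7.94, 7.76 and 7.81 in the Mst1/2-KO arrays, and Relb, the NF-kB subunit of the non-canonical arm, 7.66, 7.02, 7.02 and 7.57 in the WT arrays and 6.73, 6.62, 6.37 and 6.12 in the Mst1/2-KO arrays. Their log2 changes were -2.34 ± 0.30, -2.46 ± 0.22, -1.81 ± 0.23 and -0.86 ± 0.14, with adjusted p of 0.000423, 5.64e-06, 0.000258 and 0.00499. WT replicate 1 was the highest WT array for Ccr7, Il12b and Relb and the lowest for Ccl22. Relb missed the threshold in a fit of the 8 arrays alone (adjusted p = 0.0762). Tnfaip3, which encodes the NF-kB inhibitor A20, changed by -0.93 ± 0.19 (adjusted p = 0.0227), with 0.0956 as its highest adjusted p with 1 array left out, and Bcl3, a nuclear partner of NF-kB subunits, by -0.79 ± 0.14 (adjusted p = 0.00864).

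H2-M2, Psca, Anxa3 and Mreg fell by more than any member of either list. The fall did not take in every co-stimulatory gene: Cd86 was 11.40 ± 0.02 in WT and 11.38 ± 0.02 in Mst1/2-KO arrays, Cd80 changed by -0.24 ± 0.13 (adjusted p = 0.556) and Cd83 by -0.23 ± 0.12 (adjusted p = 0.523). Socs2, a suppressor of cytokine signalling, read 6.77, 5.54, 5.15 and 5.17 in the WT arrays and 3.55, 3.49, 3.53 and 3.67 in the Mst1/2-KO arrays, so WT replicate 1 was far above the other WT arrays and the Mst1/2-KO arrays were even. Its log2 change was -2.10 ± 0.32 (adjusted p = 0.00211), and a second Socs2 probe set at a lower signal changed by -0.25 ± 0.11. Fscn1, the actin-bundling fascin of mature DCs, read 6.91, 7.09, 7.12 and 7.24 in the WT arrays and 5.58, 5.77, 5.84 and 5.66 in the Mst1/2-KO arrays, a log2 change of -1.38 ± 0.09 (adjusted p = 4.6e-07). In this bulk RNA, fewer cells of a mature state and less RNA per cell cannot be told apart. Beside the maturation falls, the mean signal of the 10 T cell markers was 4.42 to 4.52 over WT and 4.24 to 4.34 over Mst1/2-KO arrays, with Il7r the member with the largest difference (-0.79 ± 0.26) and Cd3e at 0.01 ± 0.24, and their part in the falls was not tested.

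Chemokines fell as a small set: 3 of 33 measured (9.09%, against 0.888% of all genes called), Ccl22, Ccl5 and Cxcl10, with 0 rises and a list median of -0.15. Ccl5, a chemokine for T and NK cells that is also an NF-kB target, read 11.19, 11.29, 11.31 and 11.39 in the WT arrays and 9.16, 9.32, 9.24 and 8.72 in the Mst1/2-KO arrays. That is a 4.55-fold fall with a log2 change of -2.18 ± 0.15 (adjusted p = 5.56e-07). Cxcl10, a chemokine induced by interferon, read 8.78, 7.90, 7.83 and 8.41 in the WT arrays and 6.88, 7.10, 6.88 and 7.48 in the Mst1/2-KO arrays, and WT replicates 2 and 3 came within 0.5 of Mst1/2-KO replicate 4 (log2 change -1.14 ± 0.19, adjusted p = 0.00447). Its relative Cxcl11 was 6.45 ± 1.16 in WT and 5.33 ± 0.59 in Mst1/2-KO arrays and was not called (adjusted p = 0.334). Among 45 chemokine and chemoattractant receptors Ccr7 alone was called.

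Cytokine receptors fell in 5 of 62 measured genes (8.06%, against 0.888% of all genes called), and 0 rose (median -0.07). Il21r, the receptor of IL-21, read 7.89, 7.56, 7.51 and 7.26 in the WT arrays and 6.23, 5.97, 5.82 and 5.37 in the Mst1/2-KO arrays, a 3.26-fold fall with a log2 change of -1.71 ± 0.17 (adjusted p = 2.21e-05). Its neighbour Il4ra fell less, -0.46 ± 0.09 (adjusted p = 0.0119). Tnfrsf4, also called OX40, changed by -0.97 ± 0.15 (adjusted p = 0.00263), Tnfrsf1b, a TNF receptor, by -0.75 ± 0.12 (adjusted p = 0.00366) and Il6st, the signal chain shared by IL-6 type cytokines, by -0.47 ± 0.08 (adjusted p = 0.00632). The call of Il6st ended in the fit of the 8 arrays alone (adjusted p = 0.0671). Of 59 cytokine genes 2 fell, Il12b and Ltb (3.39% called). Ltb, lymphotoxin beta, read 7.06, 6.76, 7.07 and 6.80 in the WT arrays and 5.93, 5.65, 5.22 and 5.55 in the Mst1/2-KO arrays, so the genotypes were separate, with a log2 change of -1.33 ± 0.16 (adjusted p = 0.000156).

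Guanylate-binding proteins, GTPases that act against intracellular microbes, were the called members of the interferon-stimulated list. Gbp9, Gbp5, Gbp8 and Gbp4 fell, 4 of 52 measured (7.69%, against 0.888% of all genes called), and 0 rose. The list as a whole had a median of 0.04 and 32 members above 0. Gbp9 read 9.43, 8.55, 8.65 and 8.72 in the WT arrays and 7.38, 7.61, 7.26 and 7.38 in the Mst1/2-KO arrays and Gbp5 read 6.18, 6.18, 5.80 and 5.87 in the WT arrays and 4.56, 4.78, 4.53 and 4.84 in the Mst1/2-KO arrays. No Mst1/2-KO array reached the lowest WT array of either gene, and the log2 changes were -1.43 ± 0.17 (adjusted p = 0.000117) and -1.33 ± 0.14 (adjusted p = 3.89e-05). Gbp8 changed by -1.24 ± 0.21 (adjusted p = 0.00612). Gbp4 read 6.29, 6.50, 5.22 and 5.72 in the WT arrays and 4.67, 4.82, 4.85 and 4.70 in the Mst1/2-KO arrays, with a scattered WT group, and was called at an adjusted p of 0.0405. Leaving out any single array but WT replicate 3 ended that call (adjusted p up to 0.127). Gbp8, Gbp9 and Gbp4 are next to each other in the RefSeq order, and genes of this family are similar in sequence, so a probe set may read more than its own gene.

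Cell death genes fell in 6 of 42 and rose in 1 (16.7% called, against 0.888% of all genes). Bcl2l11, which encodes the death inducer Bim, read 7.76, 8.12, 8.08 and 8.07 in the WT arrays and 6.95, 6.85, 6.65 and 6.89 in the Mst1/2-KO arrays. The lowest WT array, replicate 1, was still above each Mst1/2-KO array, and the log2 change was -1.17 ± 0.10 (adjusted p = 5.64e-06). Casp4, an inflammatory caspase, read 7.72, 7.23, 7.05 and 7.64 in the WT arrays and 6.34, 6.63, 6.33 and 6.12 in the Mst1/2-KO arrays, a log2 change of -1.05 ± 0.18 (adjusted p = 0.00669). Trp53inp1, a p53 target, changed by -0.98 ± 0.15 (adjusted p = 0.00262) and Fas, a death receptor, by -0.84 ± 0.14 (adjusted p = 0.00505). The single rise was Tnfaip8l3, a carrier of phosphoinositide lipids placed on this list for its relation to Tnfaip8. It read 3.72, 4.07, 4.67 and 4.80 in the WT arrays and 5.45, 5.27, 5.52 and 5.35 in the Mst1/2-KO arrays, the largest rise of all called genes under the naming rule, 2.12-fold, with a log2 change of 1.08 ± 0.17 (adjusted p = 0.00291) and an adjusted p of 0.0539 in a fit of the 8 arrays alone.

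Called metabolic genes were few members of their lists. Gclc, the catalytic subunit of the first enzyme of glutathione synthesis, read 9.15, 8.91, 9.16 and 9.01 in the WT arrays and 7.17, 7.21, 7.17 and 7.01 in the Mst1/2-KO arrays. The spread within groups was 0.12 and 0.09 (SD), and the log2 change of -1.92 ± 0.08 had the smallest adjusted p of all genes (2.8e-10). The other 27 measured genes of the glutathione and antioxidant list were not called (list median 0.02). Papss2, which makes the sulfate donor of the cell, read 5.86, 5.69, 6.26 and 6.15 in the WT arrays and 4.28, 4.81, 4.51 and 4.78 in the Mst1/2-KO arrays, a log2 change of -1.40 ± 0.15 (adjusted p = 4.25e-05). Pfkfb3, which sets the activator of phosphofructokinase, read 8.39, 8.23, 8.18 and 8.58 in the WT arrays and 7.34, 7.38, 7.23 and 7.29 in the Mst1/2-KO arrays, a 2.05-fold fall (-1.04 ± 0.12, adjusted p = 9.84e-05), and Eno2, an enolase, changed by -0.70 ± 0.12 (adjusted p = 0.00632). These 2 were the called genes among 24 of glycolysis and glucose transport, whose median was 0.02. Oxidative phosphorylation (72 genes), the TCA cycle (27), mitochondrial dynamics (38) and cholesterol and fatty acid synthesis (32) had 0 called genes by limma, with 16, 4, 8 and 4 members at an unadjusted p under 0.05. Their medians were 0.09, 0.05, 0.03 and 0.08. In CD8- DCs 18 of the 32 cholesterol and fatty acid genes rose, against 3.9% of all genes called higher there, with a median of 0.43. The difference between subsets was called for 1 of the 32.

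**Figure D3:**
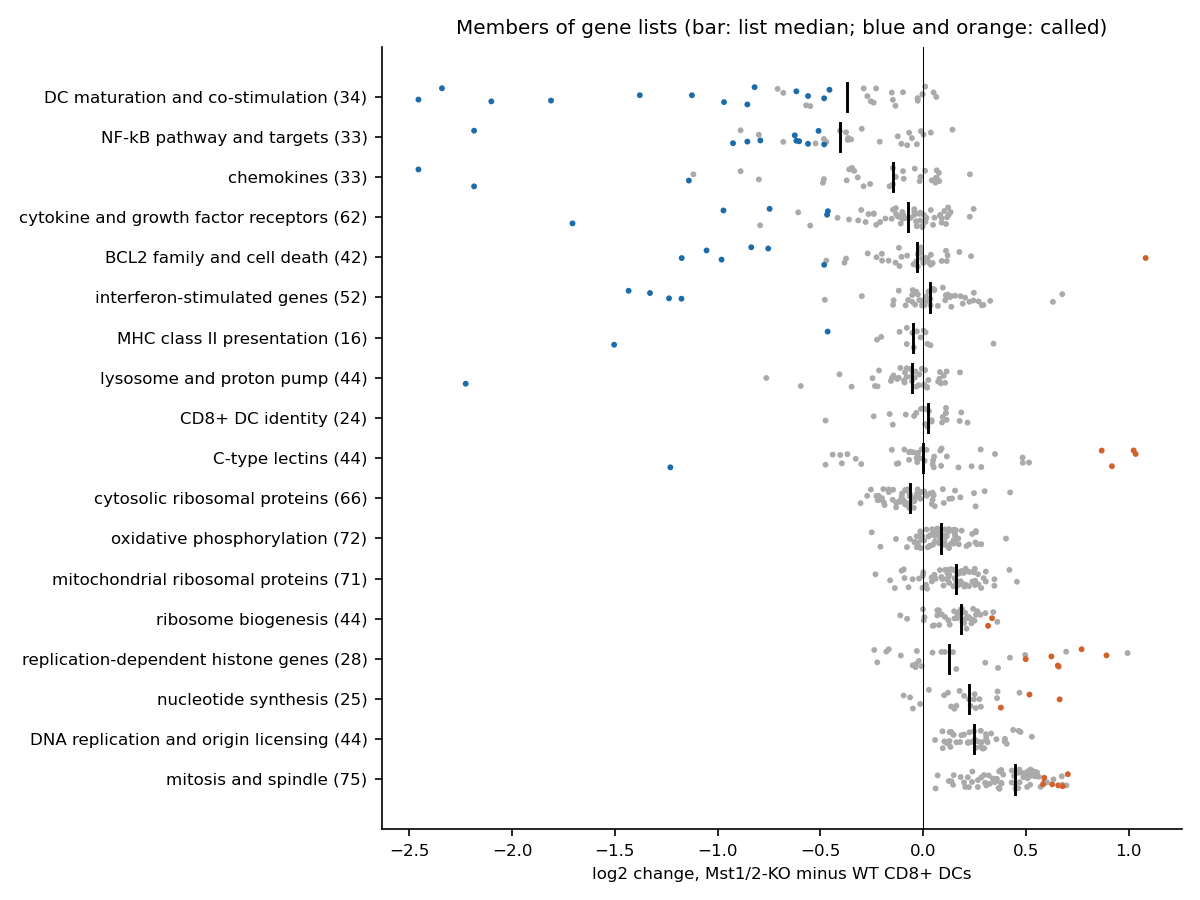
Each point is the log2 change (horizontal axis) of 1 gene between Mst1/2-KO and WT CD8+ DCs, grouped by gene list (vertical axis, with the number measured), blue for called lower, orange for called higher and grey for not called, and the bar is the list median. Points of the mitosis and spindle list all lie right of 0, and those of the maturation and NF-kB lists mostly left.

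Genes of cell division leaned higher in Mst1/2-KO CD8+ DCs, by small amounts, and few passed the test singly. All 75 measured genes of the mitosis and spindle list had a log2 change above 0, also after quantile or cyclic loess scaling, against 11430 of 22180 genes tested. The list median was 0.45, and 8 rose and 0 fell (10.7% called, against 0.888% of all genes). This lean was shared with CD8- DCs, where 46 of the 75 rose and 0 fell, against 3.9% of all genes called higher there. The list median in CD8- DCs was 0.53. The difference between subsets was called for 0 of them. In CD8+ DCs the mean log2 signal of the list was 6.31, 6.40, 6.36 and 6.44 in the WT arrays and 6.69, 6.61, 6.79 and 7.11 in the Mst1/2-KO arrays. Mst1/2-KO replicate 4 was the highest and each Mst1/2-KO array was above the WT arrays. Genotype arrays did not overlap for 36 of the 75, against 3.3% of all genes with Mst1/2-KO above. The count of 8 was 2 without Mst1/2-KO replicate 3 or 4, 3 without WT replicate 1 or 2, and 18 without Mst1/2-KO replicate 2. Beside this, the neutrophil marker mean was 4.80 to 5.30 over WT and 4.72 to 5.50 over Mst1/2-KO arrays with 0 of 14 called, and its part in the rises was not tested.

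Kif18b, a kinesin of the spindle, read 5.23, 5.24, 5.22 and 5.28 in the WT arrays and 5.96, 5.54, 6.13 and 6.16 in the Mst1/2-KO arrays, tight in WT and wider in Mst1/2-KO arrays, with a log2 change of 0.70 ± 0.13 (adjusted p = 0.0135). Aurka, a mitotic kinase outside the naming rule, changed by 0.59 ± 0.11 (adjusted p = 0.00882), with an adjusted p of 0.0671 in the fit of the 8 arrays alone. Ccna2, cyclin A, read 7.40, 7.42, 7.72 and 7.68 in the WT arrays and 8.01, 7.89, 8.22 and 8.62 in the Mst1/2-KO arrays and Nuf2, a kinetochore subunit, read 6.49, 6.78, 6.74 and 6.89 in the WT arrays and 7.41, 7.18, 7.12 and 7.82 in the Mst1/2-KO arrays. Their log2 changes were 0.63 ± 0.13 (adjusted p = 0.0321) and 0.66 ± 0.14 (adjusted p = 0.0387), and leaving out 1 array ended these calls and that of Kif18b (adjusted p up to 0.102, 0.126 and 0.0651). Shcbp1, which acts in the completion of division, was called at an adjusted p of 0.0492, with Mst1/2-KO replicate 4 at 6.99 and the other Mst1/2-KO arrays near 6.2, and lost the call with 7 of 8 single arrays left out. Prr11, a gene of mitosis off the list, read 6.74, 6.94, 6.601 and 6.74 in the WT arrays and 7.26, 7.21, 7.55 and 7.76 in the Mst1/2-KO arrays (0.69 ± 0.13, adjusted p = 0.0113, and 0.0519 without Mst1/2-KO replicate 3). Mki67, the proliferation marker Ki-67, was 8.28 ± 0.12 in WT and 8.81 ± 0.30 in Mst1/2-KO arrays and did not pass the test (adjusted p = 0.0794).

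DNA replication genes had smaller differences. All 44 measured were above 0 with a median of 0.25, and 0 were called by limma, with 21 at an unadjusted p under 0.05. In CD8- DCs 23 of the 44 rose and 1 fell, with a median of 0.48, against 3.9% of all genes called higher there. The difference between subsets was called for 0 of the 44. Of 25 nucleotide synthesis genes 3 rose in CD8+ DCs (12% called, against 0.888% of all genes). They were Rrm2, the regulated subunit of ribonucleotide reductase, Shmt2, a mitochondrial enzyme that feeds one-carbon units, and Dut, which removes dUTP. Rrm2 read 8.05, 8.23, 8.33 and 7.97 in the WT arrays and 8.63, 8.60, 8.72 and 8.70 in the Mst1/2-KO arrays, a log2 change of 0.52 ± 0.08 (adjusted p = 0.0033), and a second Rrm2 probe set changed by 0.45 ± 0.15. Shmt2 read 7.03, 7.31, 7.26 and 7.32 in the WT arrays and 7.92, 7.64, 7.80 and 8.22 in the Mst1/2-KO arrays, with a log2 change of 0.66 ± 0.14 (adjusted p = 0.0295) that leaving out 1 array ended (adjusted p up to 0.11). Dut changed by 0.38 ± 0.08 (adjusted p = 0.0405) and lost its call when any array but Mst1/2-KO replicate 2 was left out, and its second probe set, near the floor, changed by 0.01 ± 0.10. H2ax, the histone variant that marks broken DNA, was the called gene of 38 in DNA repair (0.48 ± 0.11, adjusted p = 0.0499) and lost its call with 7 of 8 single arrays left out. Hus1, of the checkpoint clamp that senses DNA damage, changed by 0.67 ± 0.15 (adjusted p = 0.0492) and was not called with 7 of 8 single arrays left out.

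Replication-dependent histone genes rose in 6 of 28 measured and fell in 0 (21.4% called, against 0.888% of all genes). H2bc18 read 4.00, 4.51, 4.44 and 4.91 in the WT arrays and 5.30, 5.03, 5.26 and 5.85 in the Mst1/2-KO arrays and H2bc12 read 4.94, 5.42, 5.60 and 5.70 in the WT arrays and 6.01, 5.93, 6.25 and 6.54 in the Mst1/2-KO arrays. The linker histone gene H1f5 read 9.28, 9.21, 9.07 and 9.39 in the WT arrays and 9.70, 9.64, 10.09 and 10.17 in the Mst1/2-KO arrays. In each of the 3 the Mst1/2-KO arrays lay above the WT arrays, and the log2 changes were 0.89 ± 0.18 (adjusted p = 0.0227), 0.77 ± 0.16 (adjusted p = 0.0266) and 0.66 ± 0.12 (adjusted p = 0.0101). The count of 6 was 0 without Mst1/2-KO replicate 3, 2 without Mst1/2-KO replicate 4, WT replicate 1 or WT replicate 2, and 3 without Mst1/2-KO replicate 1 or WT replicate 3. The list median was 0.13, and histone genes are near copies of each other, so their probe sets may share signal. In CD8- DCs 7 of the 28 rose and 0 fell, with a median of 0.17, against 3.9% of all genes called higher there. The difference between subsets was called for 0 of the 28.

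The CCAAT box, a promoter element common in cell-cycle and histone genes, was in the 250 bases before the start (CCAAT on either strand) of 25 of 43 higher genes (58.1%) and 42 of 62 mitosis genes (67.7%), against 35.6% of all promoters and 34.5% of the lower genes. The element TTTGAA, named the cell-cycle genes homology region, was in 11 of 43 (25.6%) and 21 of 62 (33.9%), against 14.2%. The mitosis list is a function that such elements are known for. Here too the promoters of all genes were not matched in signal. Windows of a kinesin gene and 2 histone genes, chosen among genes that hold a box, show repeated boxes. The box (CCAAT, or ATTGG where it lies on the other strand) is in capitals.
Kif18b (chr11:102925135-102925192, minus strand): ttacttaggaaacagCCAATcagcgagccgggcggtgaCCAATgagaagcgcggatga
H2bc12 (chr13:22035646-22035744, plus strand): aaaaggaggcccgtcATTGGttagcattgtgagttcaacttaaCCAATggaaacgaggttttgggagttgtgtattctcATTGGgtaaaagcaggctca
H2bc3 (chr13:23746572-23746697, plus strand): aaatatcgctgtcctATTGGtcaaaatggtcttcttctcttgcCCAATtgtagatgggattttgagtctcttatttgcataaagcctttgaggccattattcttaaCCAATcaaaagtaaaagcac
Kif18b holds 2 boxes and the histone genes 3 each.

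**Figure D4:**
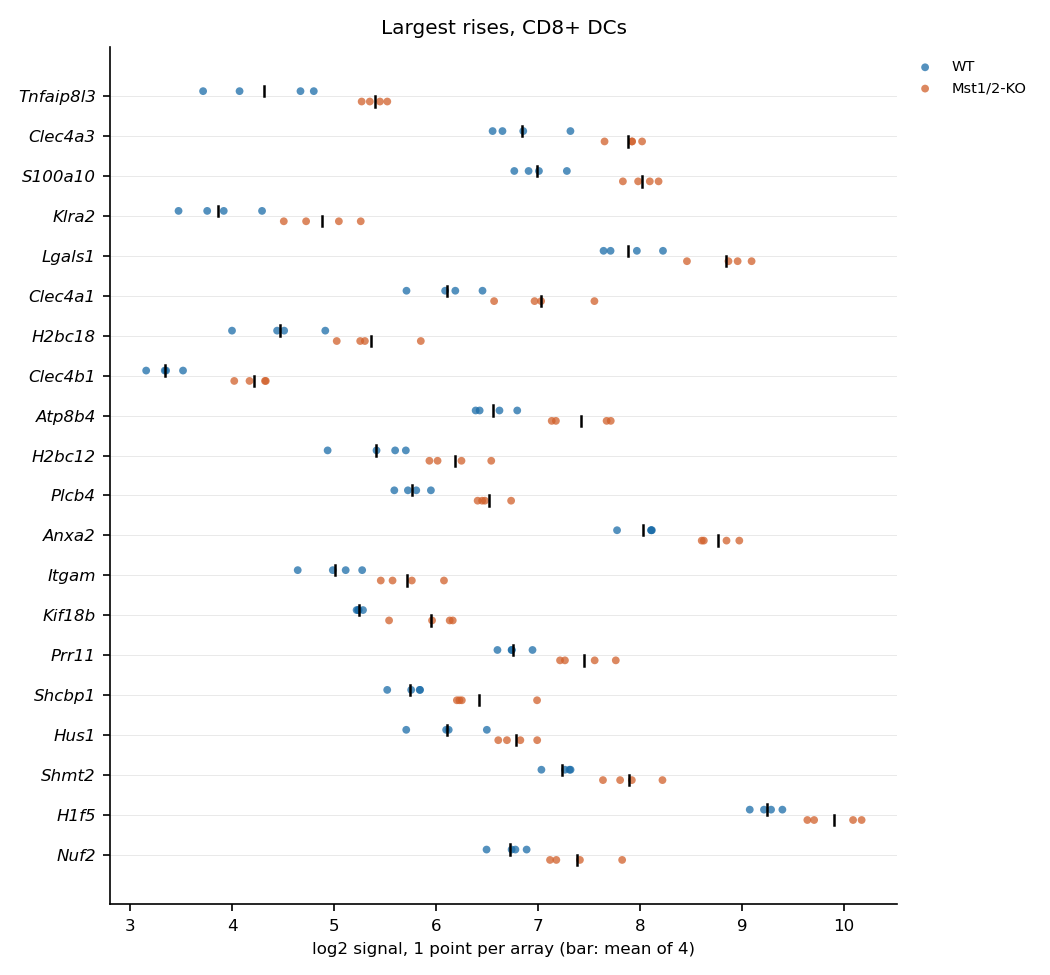
Log2 signal (horizontal axis) is shown for the 20 genes with the largest rises, 1 point per array, WT in blue and Mst1/2-KO in orange, with the mean of 4 as a bar; genotypes that did not overlap were a condition for inclusion. The gaps between genotypes are narrower than for the falls, and Mst1/2-KO replicate 4 stands apart for Shcbp1.

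Genes of ribosome making leaned upward. Of 44 ribosome biogenesis genes 41 were above 0 (39 after quantile or cyclic loess scaling), with a median of 0.19. Of the 44, 2 rose (4.55% called, against 0.888% of all genes), Ppan (0.34 ± 0.07, adjusted p = 0.0432) and Utp20 (0.32 ± 0.07, adjusted p = 0.0492). Both calls ended when any array but Mst1/2-KO replicate 2 was left out, and a second Ppan probe set changed by 0.17 ± 0.20. Of 71 mitochondrial ribosomal protein genes 60 were above 0 with a median of 0.16, and 0 were called by limma (23 at an unadjusted p under 0.05). Cytosolic ribosomal protein genes went the other way, 47 of 66 below 0 with a median of -0.06 and 0 called (2 higher and 9 lower at an unadjusted p under 0.05). Mars1, the methionine tRNA synthetase, changed by 0.45 ± 0.08 (adjusted p = 0.00697) and was the called member of 38 genes of tRNA charging and translation (median 0.13). The highest log2 change in that list, 1.925, was the largest rise of all genes tested and was not called.

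A few surface lectins rose. Of 44 C-type lectins 4 rose, Clec4a3, Klra2, Clec4a1 and Clec4b1, and 1 fell, Clec2i (11.4% called, against 0.888% of all genes). The list median was 0.00. Clec4a3, of a family of DC lectins, read 6.65, 6.85, 7.32 and 6.55 in the WT arrays and 7.92, 8.02, 7.92 and 7.65 in the Mst1/2-KO arrays. Clec4a1, of the same family, read 6.45, 5.71, 6.09 and 6.19 in the WT arrays and 7.55, 6.96, 7.03 and 6.57 in the Mst1/2-KO arrays. Mst1/2-KO arrays lay above WT arrays for both. Their log2 changes were 1.03 ± 0.13 (adjusted p = 0.0002) and 0.92 ± 0.17 (adjusted p = 0.0125), and the 2 genes are next to each other in the RefSeq order with Clec4b1, 0.87 ± 0.14 (adjusted p = 0.00264), 1 gene further on. In the fit of the 8 arrays alone Clec4a1 had an adjusted p of 0.0981. Klra2, a killer-cell lectin-like receptor that myeloid cells also carry, read 3.48, 3.92, 4.29 and 3.76 in the WT arrays and 4.73, 5.26, 5.05 and 4.51 in the Mst1/2-KO arrays, a 2.03-fold rise (1.02 ± 0.17, adjusted p = 0.00425). Clec2i read 7.49, 7.51, 7.46 and 7.28 in the WT arrays and 6.12, 6.68, 6.05 and 5.97 in the Mst1/2-KO arrays, with a log2 change of -1.23 ± 0.15 (adjusted p = 0.000192). The Fc receptor and paired inhibitory receptor list had 0 of 43 called by limma (3 higher and 5 lower at an unadjusted p under 0.05).

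Itgam, the integrin chain CD11b that marks CD8- DCs and other myeloid cells, read 5.11, 4.99, 5.28 and 4.64 in the WT arrays and 5.76, 5.57, 6.08 and 5.46 in the Mst1/2-KO arrays, a log2 change of 0.71 ± 0.14 (adjusted p = 0.0209). Each Mst1/2-KO array exceeded each WT array, and the call ended without WT replicate 2, WT replicate 4, Mst1/2-KO replicate 1 or Mst1/2-KO replicate 3 (adjusted p up to 0.0844). Itgb7, an integrin beta chain, changed by 0.52 ± 0.10 (adjusted p = 0.015). Itgam was the only rise among the 23 CD8- DC identity genes, of which 1 fell (Ltb), and the list mean was 6.21 to 6.61 over WT and 6.26 to 6.37 over Mst1/2-KO arrays. Of the 19 macrophage and monocyte markers 0 were called, with list means of 6.44 to 6.79 and 6.56 to 6.82. Their part in the rise of Itgam was not tested. Lgals1, a galectin, read 7.64, 7.71, 7.97 and 8.22 in the WT arrays and 8.46, 8.87, 9.09 and 8.96 in the Mst1/2-KO arrays, a 1.94-fold rise with an adjusted p of 0.0405, and up to 0.138 with 1 array left out. Atp8b4, a lipid flippase, changed by 0.86 ± 0.14 (adjusted p = 0.00286).

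Of 28 measured components of the Hippo pathway itself 2 fell, Stk4 and Rassf2 (7.14% called, against 0.888% of all genes). Rassf2, a binding partner of the Mst kinases, read 6.46, 6.56, 6.25 and 6.68 in the WT arrays and 5.99, 5.75, 5.92 and 6.05 in the Mst1/2-KO arrays (-0.56 ± 0.10, adjusted p = 0.0102). In the fit of the 8 arrays alone Rassf2 had an adjusted p of 0.0549. The list median was -0.01. Of 24 YAP/TAZ target genes 1 rose, Birc5 (0.58 ± 0.13, adjusted p = 0.0344), which encodes survivin and is also on the mitosis list, and 0 fell, with a median of -0.02 and 1 gene above and 1 below WT without overlap, against 3.3% and 3.03% of all genes.

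Bhlhe40, a transcription factor, read 9.99, 9.25, 8.73 and 9.06 in the WT arrays and 8.49, 8.30, 8.16 and 8.06 in the Mst1/2-KO arrays (-1.01 ± 0.20, adjusted p = 0.0185), and with Relb it was the called pair among 78 transcription factors. In signalling through G proteins 2 of 73 fell, Adcy6 and Rgs1 (-0.79 ± 0.16, adjusted p = 0.0185), and 1 rose, Plcb4. Plxnc1, a semaphorin receptor, read 9.996, 9.95, 9.98 and 9.85 in the WT arrays and 9.25, 9.10, 9.24 and 9.28 in the Mst1/2-KO arrays, a small and even fall (-0.73 ± 0.08, adjusted p = 5.61e-05). Ccng2, a cyclin linked to arrest, changed by -0.82 ± 0.13 (adjusted p = 0.00244) and with Gadd45b was called among 42 genes of entry into the cycle. Stx11, a syntaxin, changed by -0.38 ± 0.08 (adjusted p = 0.0196), Adam17, a sheddase, by -0.39 ± 0.08 (adjusted p = 0.0231) and St8sia6, a sialyltransferase, by -0.66 ± 0.15 (adjusted p = 0.0492), and each of the 3 lost its call with 5 or more of the single arrays left out. Of 375 solute carriers 4 fell and 1 rose, which at 1.33% is near the 0.888% of all genes. The largest were Slc22a15 (-0.78 ± 0.17), Slc12a2 (-0.67 ± 0.14), Slc44a1 (-0.55 ± 0.09) and Slc43a3 (0.53 ± 0.11). Several of these calls also ended with 1 array left out: H2-Q4 without Mst1/2-KO replicate 3 or Mst1/2-KO replicate 4, Il4ra without Mst1/2-KO replicate 3, Bhlhe40 without WT replicate 2, Mst1/2-KO replicate 3 or Mst1/2-KO replicate 4, Rgs1 without WT replicate 1, Mst1/2-KO replicate 3 or Mst1/2-KO replicate 4, Plcb4 without Mst1/2-KO replicate 4, Itgb7 without Mst1/2-KO replicate 3 or Mst1/2-KO replicate 4 and H1f5 without Mst1/2-KO replicate 3. The same held for H2bc18 with 6 of 8 arrays, H2bc12 with 4 of 8 arrays, Birc5 with 4 of 8 arrays, Slc22a15 with 5 of 8 arrays, Slc12a2 with 6 of 8 arrays, Slc43a3 with 6 of 8 arrays and Glipr2 with 7 of 8 arrays. No gene was called by limma in the lists of pattern recognition receptors (40; 4 higher and 4 lower at an unadjusted p under 0.05), MAP kinases and immediate-early genes (68; 2 and 10), autophagy and mTOR (44; 4 and 9), ER folding (35; 6 and 1), eicosanoids (25; 2 and 3), cholesterol efflux (22; 0 and 4), complement (53; 2 and 6) or odorant receptors (1373; 24 and 54).

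Some falls were larger in CD8+ than in CD8- DCs. The difference of the genotype effects, CD8+ minus CD8-, tested in the same fit, was called for 124 genes (0.559%), above 0 for 49 and below 0 for 75. Of the 124, 102 were called only in CD8- DCs and 2 in neither subset. A difference below 0 can thus be a deeper fall in CD8+ DCs or a larger rise in CD8- DCs. The fit took the arrays of both subsets as unpaired. With arrays of the same genotype and replicate number treated as a block, 91 were above 0 and 139 below 0. Because the difference reuses the CD8+ arrays, it is not independent of the calls above, of which it holds 20. Gclc changed by -0.10 ± 0.08 in CD8- DCs, and the difference was -1.82 ± 0.11 (adjusted p = 1.81e-07). Ccl22 changed by -0.27 ± 0.22 there, Cd63 by -0.52 ± 0.18 and Bcl2l11 by -0.04 ± 0.10, with differences of -2.18 ± 0.31 (adjusted p = 0.00257), -1.71 ± 0.25 (adjusted p = 0.0037) and -1.13 ± 0.15 (adjusted p = 0.0011). Tmem176a and Adcy6 differed by -1.12 ± 0.11 (adjusted p = 5.22e-05) and -1.02 ± 0.17 (adjusted p = 0.00759). Il12b, with -0.42 ± 0.23 in CD8- DCs, did not pass (difference -1.39 ± 0.32, adjusted p = 0.0594). Gbp9 (-0.70 ± 0.23, adjusted p = 0.259) and Tnfaip8l3 (0.94 ± 0.24, adjusted p = 0.105) did not pass either. Starting levels differed between subsets. The WT means of Gclc, Ccl22 and Il12b in CD8- DCs were 6.798, 8.004 and 7.275. These lay below their Mst1/2-KO means in CD8+ DCs (7.139, 8.263 and 7.947). The WT mean in CD8- DCs of Bcl2l11 and Adcy6 lay between the WT and Mst1/2-KO means of CD8+ DCs. For Cd63, Tmem176a and Gbp9 it was above both. Whether starting levels account for the smaller changes in CD8- DCs was not tested.

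Other genes moved in CD8- DCs and showed no call in CD8+ DCs. Cox6a2, a subunit of cytochrome oxidase known from plasmacytoid DCs, rose by 3.73 ± 0.17 in CD8- DCs and read 7.10, 6.71, 6.89 and 6.58 in the WT arrays and 7.30, 7.50, 7.42 and 7.21 in the Mst1/2-KO arrays in CD8+ DCs, where each Mst1/2-KO array was above the WT arrays without a call (0.54 ± 0.17, adjusted p = 0.209). Alox5, which starts leukotriene synthesis, changed by 2.41 ± 0.19 and -0.13 ± 0.19, and Dab2, an endocytic adaptor, by 2.63 ± 0.15 and 0.24 ± 0.15, in CD8- and CD8+ DCs in that order. Bmp2, a growth factor, changed by -2.66 ± 0.14 in CD8- DCs and was near the floor in CD8+ DCs (3.60 ± 0.20 in WT and 3.56 ± 0.20 in Mst1/2-KO arrays). Mid2, Gpm6b, Cr2 and Sucnr1 were likewise low in both groups of CD8+ arrays. Plcb4, a phospholipase C, rose in both, with 5.81, 5.95, 5.72 and 5.59 in the WT arrays and 6.48, 6.41, 6.45 and 6.74 in the Mst1/2-KO arrays in CD8+ DCs and changes of 0.75 ± 0.14 there and 2.44 ± 0.14 in CD8- DCs, the difference being -1.69 ± 0.20 (adjusted p = 0.000485).

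**Figure D5:**
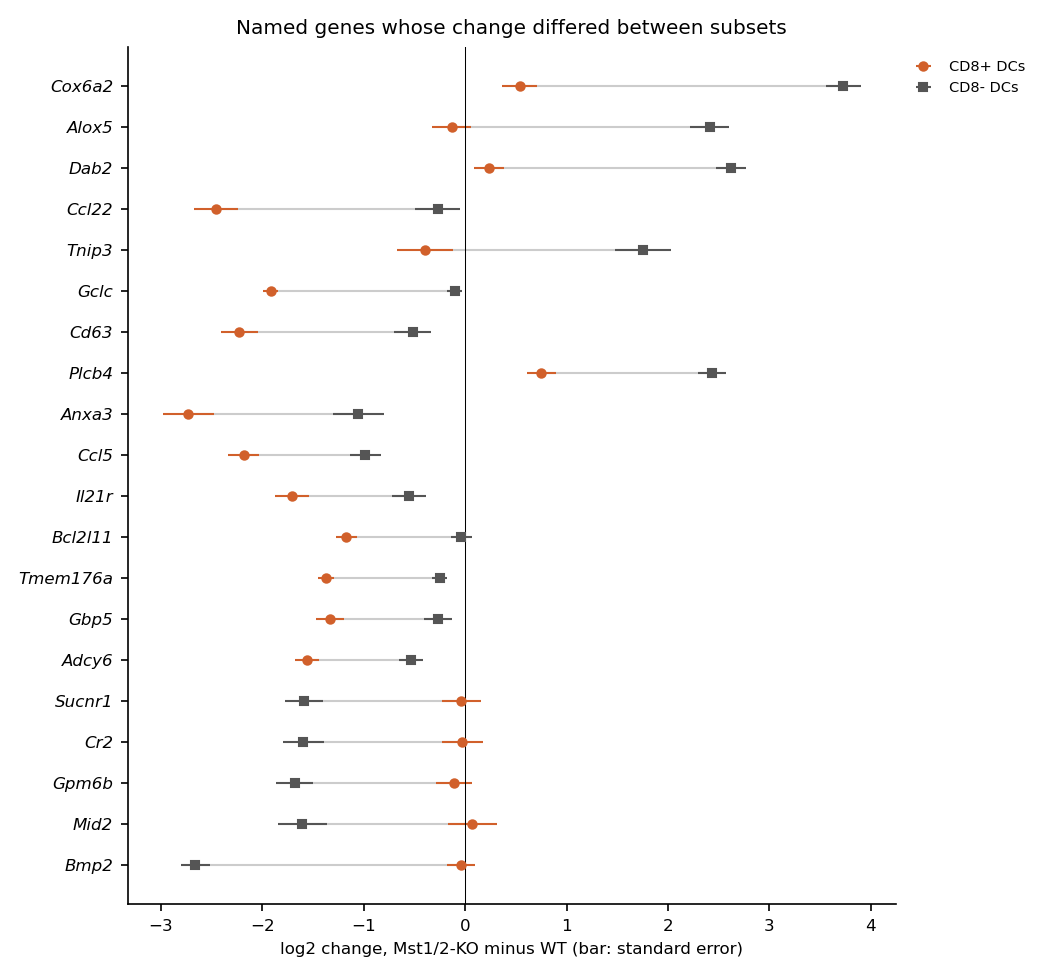
The log2 change between Mst1/2-KO and WT (horizontal axis) is shown for the named genes whose change differed between subsets, orange circles for CD8+ and grey squares for CD8- DCs, with the standard error as a bar. Gclc, Ccl22, Cd63 and Bcl2l11 lie well below 0 in CD8+ DCs and near 0 or closer to it in CD8- DCs, and Cox6a2, Alox5 and Dab2 lie far above 0 in CD8- DCs.

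Many CD8+ calls were also made in CD8- DCs, whose arrays are others in the same fit. Of the 145 lower genes 73 were called lower there (50.3%, and 11.8% of the 618 lower in CD8- DCs, which are 2.79% of all genes), and of the 52 higher genes 38 were called higher (73.1%, and 4.4% of 864, which are 3.9% of all). The labels do not say whether both subsets came from the same mice. Within a genotype, CD8+ and CD8- arrays of the same number correlated best, so this overlap may not be between independent samples. One lower gene, Glipr2, was called higher in CD8- DCs (-0.71 ± 0.16 against 0.78 ± 0.16). Among the largest falls H2-M2 changed by -1.77 ± 0.23, Mreg by -1.96 ± 0.20 and H2-Eb2 by -1.61 ± 0.18 in CD8- DCs. In total DCs, which were fitted apart and had 188 called genes (0.848%), 44 of the 145 were called lower (30.3%, and 37.3% of 118), and 5 of the 52 higher (9.62%, and 7.14% of 70). There H2-M2 changed by -2.43 ± 0.20, Mreg by -2.04 ± 0.18, Gclc by -0.88 ± 0.14 and Plcb4 by 1.68 ± 0.12. Clec4a1 was called lower in total DCs (-0.58 ± 0.10) and higher in CD8+ DCs (0.92 ± 0.17).

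Probe sets without exactly 1 gene name were tested with all 41155 probe sets, of which 145 were called (0.352%). Of 15820 without a gene name 13 were lower and 0 higher, and of 1814 shared by several genes 10 were lower and 1 higher. The deepest unnamed falls were probe sets 17268681, from a mean of 7.23 to 5.88, and 17314636, from 6.55 to 5.22, with log2 changes of -1.34 ± 0.21 and -1.33 ± 0.17.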

How the data were processed

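RNA of dendritic cells sorted from mouse spleen was extracted, amplified from 1 to 5 ng with a NuGEN kit and biotin-labelled, per the labels' protocols. The authors deposited normalized log2 values, here from 0.572 to 13.19; the submitters' processing notes name RMA and Partek 6.6. No genome build is stated in the sources used here. The deposited table holds 41155 probe sets: 23521 with 1 gene, 1814 with several and 15820 with none. A gene with several probe sets (1082 genes) took the one with the highest mean over the 34 arrays, giving 22180 genes. Deposited levels are offset by a constant per probe set between experiment labels, so sorted and total DCs are compared only through changes within each. Values compress large differences and carry a background floor, so changes of dim genes are understated.

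The 16 sorted arrays entered 1 limma 3.58.1 fit of group means (lmFit, eBayes; R 4.3.3), and the 7 total DC arrays another. A call is an adjusted p under 0.05 (Benjamini-Hochberg over all genes). The fit was tested on simulated data. The result of 1 gene list is not reported here. Levels carry the SD of n = 4 arrays, and log2 changes carry the SE. Motifs were searched in RefSeq promoters (GRCm38.p6), found for 74 of the 98 named genes. The members and lists were chosen with earlier results of these data known. Detail is given, by rule, for Stk4, Ccl22, Ccr7, Relb and Il12b, for the 20 largest falls and 20 largest rises among called genes whose genotypes did not overlap and that are off the maturation and NF-kB lists, for up to 4 called members of each list reported here, and for the 5 largest and 5 smallest called differences between subsets, predicted genes being skipped. Genes outside this rule (Mxd1, Tmem176b, Fas, Aurka, Il4ra, Glipr2, Cd40, Traf1 and Birc3 among called genes, and those named as not called) were named after their values were seen. Alternatives were the 8 arrays alone, quantile and cyclic loess scaling, dim genes left out, a variance trend, array weights, the mean of probe sets, all probe sets, 2 forms of replicate block and each array left out. Replicate numbers do not pair the genotypes: deviations from group means correlated at 0.033, -0.063, -0.071 and 0.089 for numbers 1 to 4.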

Additional observations from a re-analysis of the deposited data

Results flagged for a closer look

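A lone array stood apart within a group of 4 for 9 of 178 groups of named genes examined, and chance alone flags about 1 in 20 groups. WT replicate 1 was the one apart for Psca (6.615), Anxa2 (7.773), Bcl2l11 (7.762) and Tspan3 (8.184), WT replicate 2 for H2-Q4 (7.083) and St8sia6 (6.046), Mst1/2-KO replicate 4 for Cd63 (6.019) and Shcbp1 (6.989), and Mst1/2-KO replicate 3 for Adam17 (8.425), all in log2 signal.

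The genotype effect differed between CD8+ and CD8- DCs, by the interaction test, for 20 named genes. In log2 units the CD8+ effect minus the CD8- effect was below 0 for Ccl22 (-2.183), Gclc (-1.816), Cd63 (-1.707), Anxa3 (-1.679), Ccl5 (-1.199), Il21r (-1.150), Bcl2l11 (-1.135), Tmem176a (-1.123), Gbp5 (-1.060) and Adcy6 (-1.024), which fell more in CD8+ DCs, and for Plcb4 (-1.686), which rose less. It was also below 0 for Cox6a2 (-3.191), Alox5 (-2.544), Dab2 (-2.388) and Tnip3 (-2.153), which rose in CD8- DCs and were not called in CD8+ DCs. It was above 0 for Bmp2 (2.616), Mid2 (1.677), Gpm6b (1.575), Cr2 (1.568) and Sucnr1 (1.549), which fell in CD8- DCs and were not called in CD8+ DCs. Leaving out the 16 sorted arrays one at a time ended the calls of Anxa3, Il21r and Mid2 in 12 cases each (adjusted p up to 0.0955, 0.0796 and 0.0773), and over all probe sets those 3 and Gbp5, Ccl5, Tnip3 and Cr2, 7 of the 20, were not called (adjusted p up to 0.123). Mid2 also missed with the replicate block (adjusted p = 0.0503).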

How the results depend on the processing

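No named call changed its direction under any alternative. Of the 145 lower genes 90 stayed called with each array left out in turn and 87 under every other setting that tested them, and of the 52 higher genes 12 and 12. The higher genes numbered 52, and 20 with the 8 CD8+ arrays alone, 97 among genes above the median signal, 22 over all probe sets and 97 with the replicate block, against 19 to 80 with 1 array left out. The lower genes stayed within 1.5 times of 145 except without Mst1/2-KO replicate 3 (95), and numbered 106 to 137 with any other CD8+ array left out. The higher and lower differences between subsets, 49 and 75, were 82 and 140 with array weights, 23 and 40 over all probe sets, 91 and 139 with the replicate block within genotype (consensus correlation 0.11), and 30 to 104 and 45 to 155 with 1 array left out, the highest without WT CD8- replicate 1. Within a genotype each CD8+ array correlated best with the CD8- array of its own number, a hint of shared samples from the data and not from the design. The cause of these shifts was not tested. At least 1 array left out ended the call of 40 of 52 rises, 55 of 145 falls and 7 of the 45 falls of 2-fold or more. The lowest of 4 bands of mean signal had 0 calls.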
